A study of Rattus norvegicus with 6 samples.

Results

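Genes of mitosis and the spindle were described in cultured precursor cells of newborn rat skin and nerve. They are 58 genes chosen by name for their known roles in cell division, with earlier results of these data known. Of these, 52 were measured by a probe set that the platform's annotation pairs with that symbol alone, out of 18166 genes measured in this way. Nek2 shared its probe set with a second symbol, and Birc5, Cenpe, Spc24, Anln and Ncaph were not matched to a probe set of 1 symbol, so these 6 were not analysed here. Ccnb2 alone had several such probe sets, and the one brighter on average was kept.

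All cells came from wild-type Sprague-Dawley pups, with 3 independent isolates and 1 array per isolate in each group. SKPs (skin-derived precursors) were isolated from back skin and allowed to form spheres, which were dissociated and plated again at 50000 cells/ml, in basal medium with FGF2 (40 ng/ml), EGF (20 ng/ml), B27 (2%) and fungizone. NSCPs (nerve-derived Schwann cell precursors) were isolated from sciatic nerve and kept on dishes coated with laminin (4 μg/ml) and poly-D-lysine (30 μg/ml), in medium with neuregulin-1β (25 ng/ml), forskolin (5 μM), N2 (2%) and P/S. The assignment of B27 and fungizone to the SKP medium is a reading of a protocol text that runs both cultures together. Cell source, medium and growth as spheres or on a coated surface differed together between the groups and cannot be told apart in these arrays. The sources used here do not say how many pups went into an isolate.

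Entry into mitosis is driven by Cdk1 bound to cyclin A or B, after which kinases of the Polo and Aurora families, kinesin motors and kinetochores build the spindle and attach the chromosomes. The spindle checkpoint holds back the anaphase-promoting complex (APC/C) until all chromosomes are attached, and the APC/C then marks cyclin B and securin for destruction. Most of these genes are transcribed late in the cell cycle under the control of the MuvB complex with B-Myb and FoxM1 and of the CCAAT-binding factor NF-Y. Schwann cell precursors are a dividing population in the developing nerve. In bulk RNA, fewer dividing cells and less transcript per dividing cell cannot be told apart.

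Levels are given as log2 expression values after RMA, the authors' normalization and probe summary, and a difference is NSCPs minus SKPs on that scale, with the standard error (SE) of limma's fit. A gene is called higher or lower when its Benjamini-Hochberg adjusted p over all 18166 genes was under 0.05. From 67.3% to 69.1% of genes on each array lay above 5.32, the 95th percentile of olfactory and vomeronasal receptor genes, which served as a background level. The cell labels were checked against marker lists. All 8 measured Schwann cell markers were higher in NSCPs, among them S100b (12.08 ± 0.19 against 7.73 ± 0.26, SD, n = 3 each), Sox10 (10.52 ± 0.21 against 7.42 ± 0.22), Erbb3 (11.35 ± 0.09 against 6.57 ± 0.21) and Ngfr (11.73 ± 0.25 against 9.54 ± 0.23). All 10 dermal and mesenchymal markers were lower, though the collagen genes Col1a1, Col1a2 and Col3a1 stayed at 11.80, 11.85 and 10.69 in NSCPs, and Thy1 fell from 11.83 to 6.32.

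Nearly the whole mitotic set was higher in NSCPs. Of the 52 measured genes, 51 were called higher and 0 lower, against 25.2% of all genes called higher, 18.6% called lower and 43.7% called in either direction. Limma at an unadjusted p under 0.05 also gave 51 higher and 0 lower. The median difference of the 52 genes was 2.21, or 4.63-fold, against a median of 0.14 over all genes. In the 51 called genes every NSCP array lay above every SKP array, which was the case for 34.4% of all genes, while 56.6% of all genes had groups apart in either direction. At least 2-fold higher were 50 of the 52 genes (7.45% of all genes), at least 4-fold 35 (2.33% of all genes) and at least 8-fold 3 (0.826% of all genes). Tested against a 2-fold change with limma's treat, 46 of the 52 were higher (3.93% of all genes). The count of 51 was the same with each array left out in turn.

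**Figure D1:**
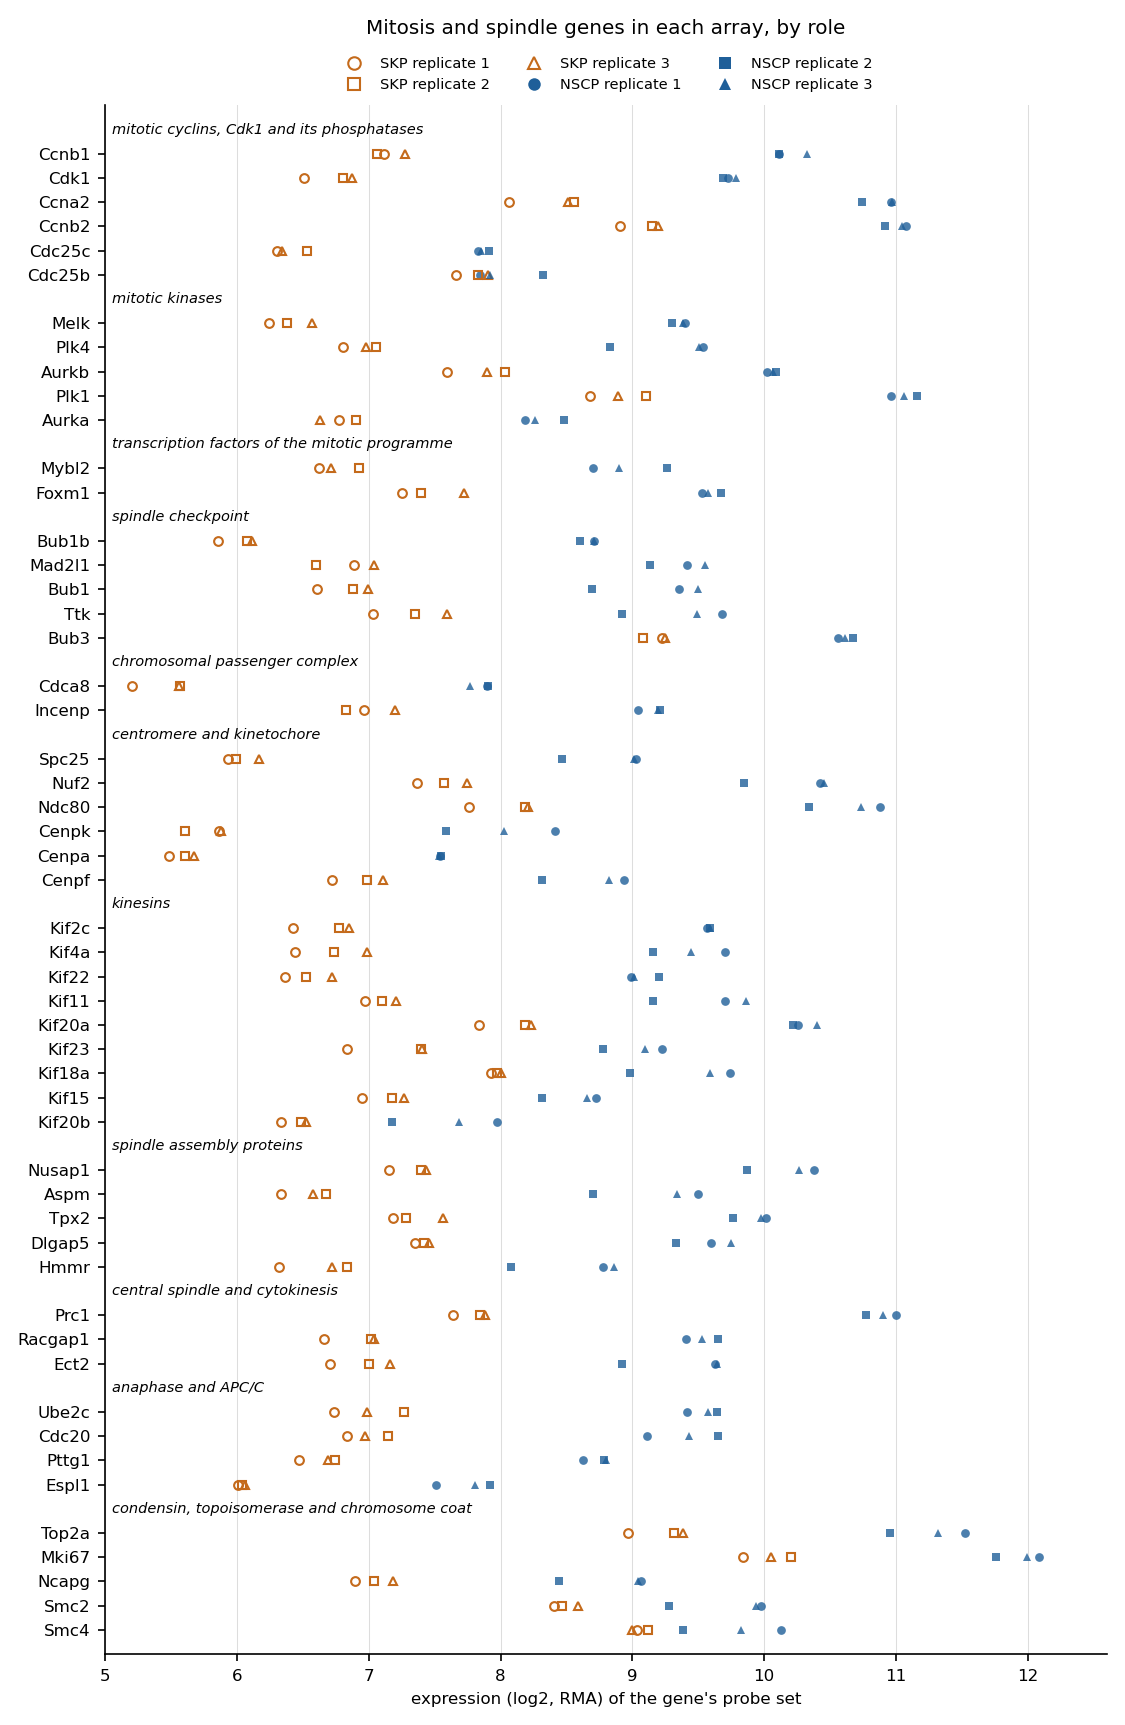
Level of each of the 52 measured genes in each array (horizontal axis, log2 RMA value of the gene's probe set; rows, genes by role), with open orange symbols for SKPs and filled blue symbols for NSCPs, and circle, square and triangle for replicates 1, 2 and 3. The blue symbols lie to the right of the orange ones in every row except Cdc25b, where the groups overlap; levels of different genes are not comparable, since each has its own probes.

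Averaged over the 52 genes, the SKP arrays stood at 7.08, 7.29 and 7.35 and the NSCP arrays at 9.49, 9.25 and 9.49. The groups did not overlap (9.41 ± 0.14 against 7.24 ± 0.14, SD of the array means, n = 3 each). None of the 52 genes had a group mean within the background level, so mitotic transcripts were above it in SKP cultures as well. Markers of macrophages and leukocytes, cells also found in skin, moved with the groups: 11 of 14 were lower in NSCPs and 0 higher (0 also at limma's unadjusted p under 0.05). Their mean over the 14 genes was 9.71, 8.83 and 9.08 in the SKP arrays and 5.03 to 5.19 in the NSCP arrays, with 12 to 13 of 14 above background in SKPs and 5 to 6 in NSCPs. Those named for the highest mean over all 6 arrays are Lyz2 (13.16 ± 0.24 in SKPs against 4.36 ± 0.24 in NSCPs, SD, n = 3 each), Fcer1g (11.74 ± 0.66 against 5.21 ± 0.27), Cd53 (11.61 ± 0.47 against 5.29 ± 0.15) and Laptm5 (10.72 ± 0.59 against 6.46 ± 0.20). Cybb, named after its values were seen, was at 12.08 ± 0.51 against 4.80 ± 0.20. Adipocyte markers (6 of 6 lower in NSCPs) moved the same way, led by Lpl (11.44 ± 0.12 against 4.91 ± 0.14), with array means of 8.54 to 9.21 in SKPs and 5.14 to 5.56 in NSCPs. The part of these cells in the mitotic differences was not tested.

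All 4 genes of the cyclins and Cdk1, which form the kinase that starts mitosis, were higher in NSCPs, and Ccnb1 and Cdk1 had the largest differences of the set after Prc1. Cdk1, its catalytic subunit, stood at 6.51, 6.81 and 6.88 in the SKP arrays and at 9.72, 9.69 and 9.78 in the NSCP arrays. The NSCP isolates differed among themselves by less than 0.1 while the groups were 8.0-fold apart (difference 3.00, SE 0.13, adjusted p = 5.36e-07 by limma). Ccnb1, the main cyclin partner of Cdk1 in mitosis, was at 7.12, 7.06 and 7.28 in SKPs and at 10.11, 10.11 and 10.33 in NSCPs. Its difference of 3.03 (SE 0.13, adjusted p = 3.54e-07) was 8.18-fold, with no overlap. Ccna2, the cyclin of S phase and early mitosis, was 5.70-fold higher. Ccnb2 was measured by 2 probe sets that were both higher in NSCPs, by 1.93 (3.81-fold) in the kept one and by 2.72 (6.59-fold) in the other, so the size of its difference depends on the probe set.

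The Cdc25 phosphatases, which remove the inhibitory phosphates from Cdk1, were not all alike. Cdc25c was 2.77-fold higher in NSCPs (6.39 ± 0.12 against 7.86 ± 0.04, SKPs and then NSCPs, SD, n = 3 each). Cdc25b stood at 7.66, 7.83 and 7.90 in SKPs and at 7.84, 8.32 and 7.92 in NSCPs. Its groups overlapped, with NSCP replicate 2 the highest array, and its difference of 0.23 did not pass (SE 0.16, adjusted p = 0.257 by limma), with a 95% interval from -0.12 to 0.59. Without NSCP replicate 2 the difference of Cdc25b was 0.09. It was the only one of the 52 genes that was not called. Cdc25a, the third phosphatase and not a member of the set, was higher by 1.28. Whether the 3 phosphatases differ from each other was not tested.

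Promoter sequences are shown for the 3 genes with at least 8-fold differences (Prc1, Ccnb1 and Cdk1), for the Polo kinase gene Plk1, and for the 2 genes with the smallest differences (Smc4 and Cdc25b), to set the elements in front of genes that moved much and little side by side. They were chosen after the values were seen. Each is the RefSeq window from 250 bases before to 50 bases after the annotated start, 5′ to 3′ on the strand of the gene in assembly GRCr8: Prc1 at chr1:143659231-143659530 on the plus strand, Ccnb1 at chr2:33655176-33655475 on the minus strand, Cdk1 at chr20:19265043-19265342 on the plus strand, Plk1 at chr1:186147408-186147707 on the plus strand, Smc4 at chr2:155550012-155550311 on the plus strand and Cdc25b at chr3:138859923-138860222 on the plus strand. Capitals mark CCAAT, the letters that NF-Y binds, and TTTGAA or TTTAAA, the core letters of the cell cycle genes homology region (CHR) to which MuvB binds, each on either strand (ATTGG and TTCAAA are CCAAT and TTTGAA on the other strand).
Prc1: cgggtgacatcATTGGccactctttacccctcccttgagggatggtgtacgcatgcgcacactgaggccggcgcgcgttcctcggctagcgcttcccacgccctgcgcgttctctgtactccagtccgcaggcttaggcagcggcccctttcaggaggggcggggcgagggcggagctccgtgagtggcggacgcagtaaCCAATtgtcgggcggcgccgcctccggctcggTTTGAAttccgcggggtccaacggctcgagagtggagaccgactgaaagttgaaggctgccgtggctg
Ccnb1: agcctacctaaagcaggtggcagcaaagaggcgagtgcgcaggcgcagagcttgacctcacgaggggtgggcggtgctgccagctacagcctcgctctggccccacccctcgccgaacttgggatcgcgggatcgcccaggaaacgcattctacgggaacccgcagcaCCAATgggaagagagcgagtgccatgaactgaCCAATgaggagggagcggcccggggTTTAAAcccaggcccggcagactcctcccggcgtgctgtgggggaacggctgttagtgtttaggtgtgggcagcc
Cdk1: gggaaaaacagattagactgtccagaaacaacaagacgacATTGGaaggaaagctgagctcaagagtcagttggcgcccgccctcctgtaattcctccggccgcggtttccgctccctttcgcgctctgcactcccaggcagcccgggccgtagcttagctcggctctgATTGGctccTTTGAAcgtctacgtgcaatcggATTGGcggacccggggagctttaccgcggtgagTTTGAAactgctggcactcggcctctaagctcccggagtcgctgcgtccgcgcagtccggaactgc
Plk1: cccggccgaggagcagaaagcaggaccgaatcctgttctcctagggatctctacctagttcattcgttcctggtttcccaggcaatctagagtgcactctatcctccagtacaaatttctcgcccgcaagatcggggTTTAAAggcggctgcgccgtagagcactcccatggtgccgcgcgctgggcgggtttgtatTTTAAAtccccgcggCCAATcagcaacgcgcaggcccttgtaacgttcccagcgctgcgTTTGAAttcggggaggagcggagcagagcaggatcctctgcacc
Smc4: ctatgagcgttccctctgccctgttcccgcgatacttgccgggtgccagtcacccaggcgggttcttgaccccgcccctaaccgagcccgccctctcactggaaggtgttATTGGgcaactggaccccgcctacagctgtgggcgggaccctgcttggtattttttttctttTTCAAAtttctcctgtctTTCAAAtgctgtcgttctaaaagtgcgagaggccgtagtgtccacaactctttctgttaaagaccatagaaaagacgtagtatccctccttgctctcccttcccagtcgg
Cdc25b: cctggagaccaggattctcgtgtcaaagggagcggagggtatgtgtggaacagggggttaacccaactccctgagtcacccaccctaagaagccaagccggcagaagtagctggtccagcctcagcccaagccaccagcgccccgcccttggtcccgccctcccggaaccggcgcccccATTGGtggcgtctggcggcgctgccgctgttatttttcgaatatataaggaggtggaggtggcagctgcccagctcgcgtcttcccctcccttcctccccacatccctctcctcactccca

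In the window of Prc1, CCAAT lay 239 and 50 bases before the start and TTTGAA 18 bases before it. Ccnb1 had CCAAT at 82 and 50 bases and TTTAAA at 25 bases before its start. Cdk1 had 3 matches of CCAAT and 2 of TTTGAA, the nearest 16 bases before the start. The window of Smc4, whose difference was among the smallest, held 1 CCAAT and 2 TTTGAA as well, and that of Cdc25b held 1 CCAAT and neither form of the CHR. A match is a description of the letters and not evidence of binding.

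Of the 52 genes, 45 had windows in the RefSeq table, 46 windows in all because Kif2c has 2. CCAAT was found in 33 of the 46 windows (71.7%) and TTTGAA in 32 (69.6%), against 37.5% and 15.9% of the 15971 windows of all genes on the arrays (37.5% and 18.3% of all 33469 windows in the table). Both were present in 26 windows (56.5%, against 6.53% of the windows of genes on the arrays), and TTTAAA in 14 (30.4% against 11.8%). TTTAAA reads the same on both strands, and a match of CCAAT can share 1 base with a neighbouring CHR match. Of the 40 TTTGAA matches 23 lay within 50 bases of the start, and their median position was 36 bases before it, while the 77 CCAAT matches had a median position of 104 bases before it. By these medians TTTGAA lay nearer the start than CCAAT. Each window reaches further before the start than after it, so matches placed at random would also have a median before it. Positions in the windows of other genes were not compared, so whether either element has a preferred position was not tested.

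**Figure D2:**
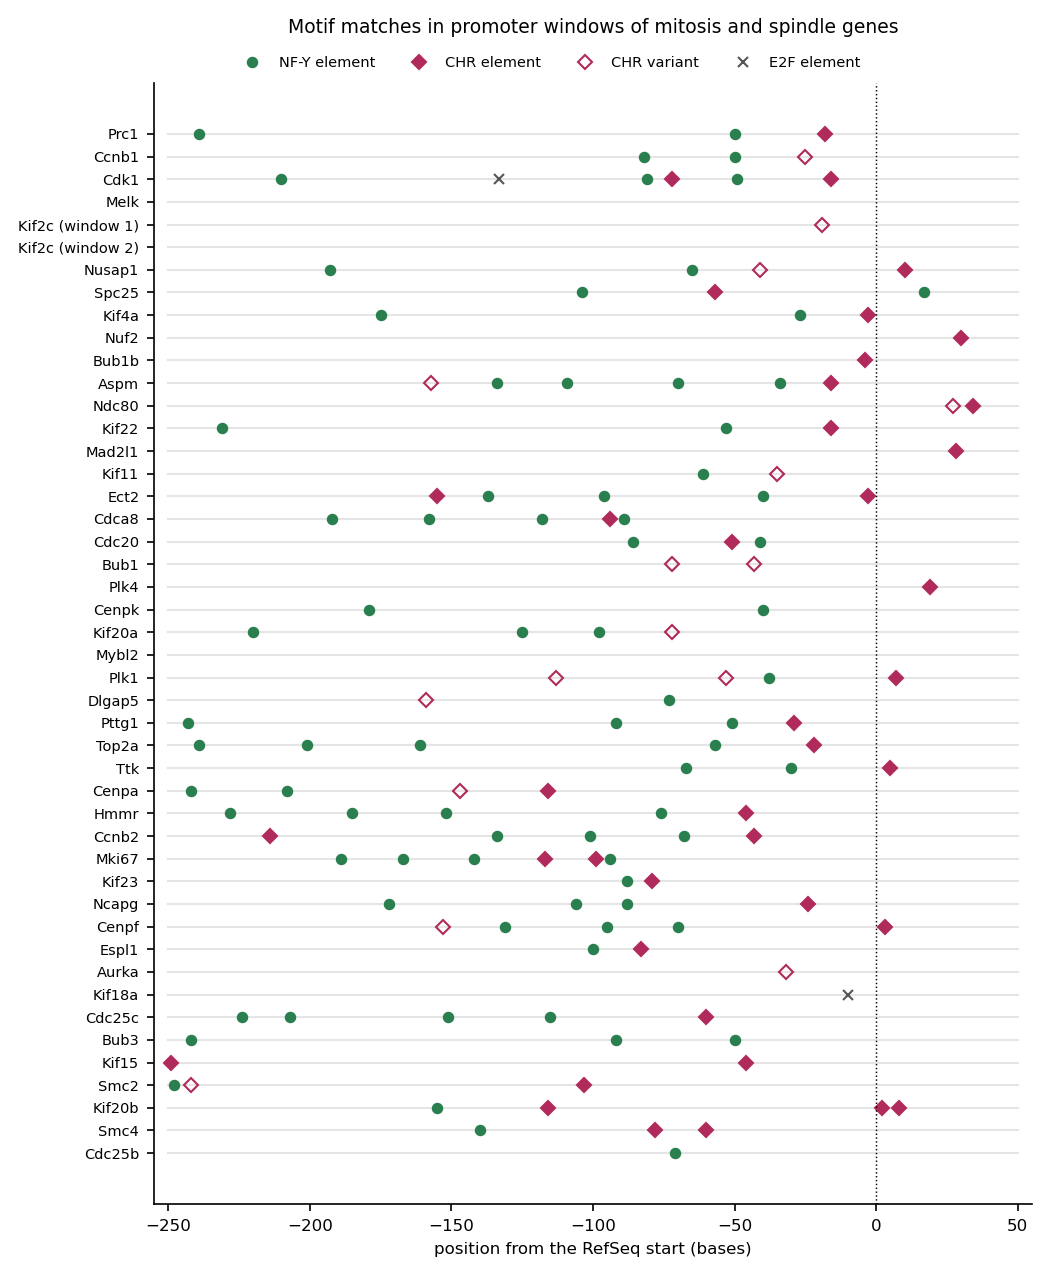
Motif matches in the 46 promoter windows (rows, genes ordered from the largest to the smallest difference between NSCPs and SKPs) by position from the RefSeq start in bases (horizontal axis, dotted line at the start). Green circles are NF-Y elements, filled red diamonds CHR elements, open red diamonds the CHR variant and crosses E2F elements; 23 of the 40 filled diamonds lie within 50 bases of the start, and rows with and without either form occur along the whole order.

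Replication genes, which are switched on earlier in the cell cycle, gave a different set of letters. Among 38 windows of DNA replication and S-phase genes TTTGAA was in 7 (18.4%) and CCAAT in 22 (57.9%). The E2F elements TTTCGCGC or TTTGGCGC, searched on both strands, were in 14 of these windows (36.8%) but in 2 of the 46 mitotic windows (4.35%), those of Cdk1 and Kif18a. They were in 1.12% of the windows of genes on the arrays. Other forms of the E2F element were not searched, so a window without a match can still hold one. Within the mitotic set the median difference was 2.13 in the 32 genes with TTTGAA and 2.21 in the 13 without, and 2.10 in the 33 genes with CCAAT and 2.44 in the 12 without. The 13 are not a group without the CHR, since Ccnb1, Kif2c, Kif11, Bub1, Kif20a, Dlgap5 and Aurka among them held TTTAAA. The genes with neither form were Melk (difference 2.96), Cenpk (2.23), Mybl2 (2.20), Kif18a (1.47), Bub3 (1.43) and Cdc25b (0.23). These shares and medians are descriptions without a test.

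**Figure D3:**
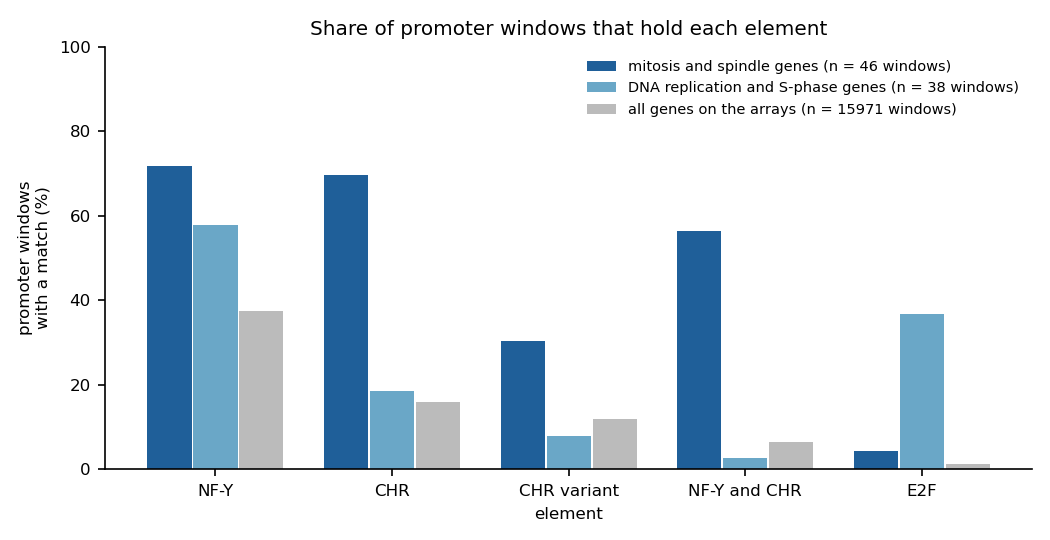
Share of promoter windows with a match (vertical axis, percent, from 0) for each element, in 46 windows of mitosis and spindle genes (dark blue), 38 windows of DNA replication and S-phase genes (light blue) and 15971 windows of all genes on the arrays (grey). NF-Y with CHR is at 56.5%, 2.63% and 6.53% in the 3 sets, and E2F at 4.35%, 36.8% and 1.12%. E2F stands for TTTCGCGC or TTTGGCGC only.

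FoxM1 and B-Myb, transcription factors known for their control of late cell cycle genes, were both higher in NSCPs at the RNA level. Their binding to these promoters was not measured. Mybl2, which encodes B-Myb, stood at 6.62, 6.92 and 6.72 in SKPs and at 8.70, 9.26 and 8.90 in NSCPs, a 4.60-fold difference. Foxm1 stood at 7.26, 7.40 and 7.72 in SKPs and at 9.53, 9.68 and 9.57 in NSCPs, a 4.38-fold difference. Neither gene's groups overlapped (adjusted p = 1.27e-05 and 6.75e-06 by limma). Among 20 further measured genes of MuvB, the DREAM complex, E2F and NF-Y, 16 were higher and 3 lower, beside 25.2% and 18.6% of all genes. The higher ones were led by E2f7 (4.43-fold) and E2f8 (4.19-fold), atypical E2F repressors that are themselves made in late G1 and S phase, and Tfdp2 (3.15-fold), a dimer partner of E2F. The 3 lower ones were E2f4 (1.72-fold lower, adjusted p = 0.00162), Rbl2 (1.62-fold, adjusted p = 0.0044), which encodes p130, and Lin37 (1.44-fold, adjusted p = 0.0085). All 3 are known as parts of DREAM, the form of the MuvB complex that represses cell cycle genes in resting cells. Other parts of the same complex were higher, named after their values were seen: Rbl1, which encodes p107, by 1.12, Lin52 by 0.71, Lin54 by 0.97, Rbbp4 by 1.45, E2f5 by 1.59 and Tfdp1 by 0.93. The parts of DREAM thus differed in both directions.

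All 5 measured mitotic kinases were higher. Melk, a kinase abundant in dividing progenitors, was at 6.25, 6.38 and 6.57 in SKPs and 9.40, 9.30 and 9.38 in NSCPs, a difference of 2.96 (SE 0.13, 7.77-fold, adjusted p = 4.36e-07 by limma). Plk4, which controls centriole duplication, was 5.08-fold higher, Aurkb, the kinase of the chromosomal passenger complex, 4.64-fold, and Plk1, which acts from mitotic entry to cytokinesis, 4.49-fold. Aurka, the kinase of the spindle poles, had the smallest difference of the group at 1.54 (SE 0.13, 2.90-fold). It stood at 6.78, 6.91 and 6.63 in SKPs and at 8.19, 8.48 and 8.26 in NSCPs, still without overlap.

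The spindle checkpoint, which delays anaphase while any kinetochore is unattached, was higher in 5 of 5 genes. Bub1b, which encodes the inhibitor BubR1, stood at 5.85, 6.08 and 6.11 in SKPs and at 8.71, 8.60 and 8.71 in NSCPs. Its isolates lay close together within each group and its difference was 2.66 (SE 0.12, 6.31-fold, adjusted p = 6.62e-07 by limma). Mad2l1 (5.74-fold), Bub1 (5.12-fold) and Ttk, which encodes the checkpoint kinase Mps1 (4.11-fold), followed. Bub3, the adaptor that brings Bub1 and BubR1 to kinetochores, had the smallest difference at 2.70-fold, with 9.22, 9.08 and 9.25 in SKPs and 10.56, 10.68 and 10.61 in NSCPs. In the chromosomal passenger complex, which corrects faulty attachments, both measured members other than its kinase Aurkb were higher as well. Cdca8, which encodes borealin, was at 5.20, 5.57 and 5.56 against 7.90, 7.90 and 7.77 (5.32-fold), with SKP replicate 1 below the background level. Incenp, the scaffold, was at 6.96, 6.83 and 7.20 against 9.05, 9.21 and 9.19 (4.45-fold).

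Kinetochores join chromosomes to spindle microtubules, and the 6 measured centromere and kinetochore genes were all higher. The 3 measured subunits of the Ndc80 complex, which grips the microtubule, had the largest differences: Spc25 6.98-fold, Nuf2 6.41-fold and Ndc80 6.06-fold. Spc25 stood at 5.93, 5.99 and 6.17 in SKPs and at 9.03, 8.46 and 9.01 in NSCPs (SE 0.17, adjusted p = 3.58e-06 by limma), and Nuf2 at 7.36, 7.57 and 7.74 against 10.43, 9.84 and 10.45. In both genes NSCP replicate 2 was the lowest of its group, yet above all SKP arrays. Cenpk of the inner kinetochore was 4.68-fold higher, and Cenpa, the histone variant that marks the centromere, 3.87-fold. Cenpf, a large protein of the outer kinetochore, had the smallest difference (3.37-fold), with 6.72, 6.99 and 7.11 in SKPs and 8.93, 8.32 and 8.82 in NSCPs. Of 24 further kinetochore genes 23 were higher and 0 lower (0 lower also at limma's unadjusted p under 0.05), with a median difference of 1.79. Oip5 (9.32-fold) and Hjurp (7.22-fold), which load Cenpa at centromeres, and Cenpu (7.05-fold) led them.

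All 9 kinesins, the motors that move along or take apart spindle microtubules, were higher, by 2.24-fold to 7.45-fold. Kif2c, which depolymerises microtubules at centromeres, stood at 6.42, 6.78 and 6.85 in SKPs and at 9.57, 9.59 and 9.59 in NSCPs. The NSCP isolates were almost equal and the difference was 2.90 (SE 0.14, adjusted p = 8.68e-07 by limma). Kif4a, a motor of chromosome arms and the central spindle, was at 6.44, 6.74 and 6.99 against 9.70, 9.15 and 9.44 (6.54-fold). Kif22 (5.78-fold), which pushes chromosome arms, Kif11 (5.58-fold), which drives the spindle poles apart, Kif20a (4.62-fold) and Kif23 (3.53-fold), both needed for cytokinesis, lay between. Kif18a (2.77-fold), Kif15 (2.69-fold) and Kif20b were the least different. Kif20b was at 6.34, 6.49 and 6.53 in SKPs and at 7.98, 7.18 and 7.68 in NSCPs, and it remained called (adjusted p = 0.00152) although NSCP replicate 2 was 0.65 below the mean of the other two.

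Spindle assembly proteins were higher in 5 of 5 genes. Nusap1, which bundles microtubules near chromosomes, stood at 7.15, 7.40 and 7.44 in SKPs and 10.38, 9.87 and 10.26 in NSCPs (7.16-fold, SE 0.16, adjusted p = 2.31e-06 by limma). Aspm, a spindle pole protein known from microcephaly, was at 6.34, 6.68 and 6.57 against 9.50, 8.70 and 9.34 (6.27-fold). Tpx2, the activator of Aurora A, was 5.96-fold higher and Dlgap5 4.43-fold. Hmmr stood at 6.32, 6.84 and 6.72 in SKPs and 8.78, 8.08 and 8.86 in NSCPs (3.85-fold), with the largest SE of the 52 genes at 0.23. Of 25 further spindle and centrosome genes 21 were higher and 0 lower (0 lower also at limma's unadjusted p under 0.05), led by Ckap2 (7.89-fold), Ckap2l (7.51-fold) and Spag5 (4.80-fold), which bind spindle microtubules. The 4 that did not pass are named after their values were seen: Psrc1 at -0.16, Numa1 at 0.13, Cenpj at 0.19 and Cep152 at 0.26.

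The central spindle, where the cleavage furrow is placed, held the gene with the largest difference of all 52. Prc1, the protein that bundles antiparallel microtubules there, stood at 7.64, 7.85 and 7.88 in SKPs and at 11.00, 10.77 and 10.90 in NSCPs. The groups were 2.89 apart at their nearest arrays, and the difference was 3.10 (SE 0.13, 8.58-fold, adjusted p = 3.34e-07 by limma). Racgap1, a subunit of the centralspindlin complex, was at 6.66, 7.02 and 7.04 against 9.41, 9.65 and 9.53 (6.15-fold). Ect2, the exchange factor that activates RhoA at the furrow, was at 6.71, 7.001 and 7.16 against 9.63, 8.92 and 9.64 (5.43-fold). Of 9 further cytokinesis genes 6 were higher (25.2% of all genes) and 0 lower (18.6% of all genes). At limma's unadjusted p under 0.05 also 0 were lower. The higher ones included Iqgap3 (6.997-fold), Cep55 (4.51-fold), which acts in the final cut, and Arhgap11a (3.40-fold). The 3 that did not pass, named after their values were seen, have roles outside division too: Septin7 at -0.25, Rock1 at 0.19 and Rhoa at 0.30. Whether such roles go with smaller differences was not tested.

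In the anaphase group, Ube2c, the ubiquitin-conjugating enzyme that works with the APC/C, was at 6.73, 7.27 and 6.99 in SKPs and 9.41, 9.65 and 9.57 in NSCPs (5.84-fold, SE 0.16, adjusted p = 3.62e-06 by limma). Cdc20, the APC/C activator held by the checkpoint, was 5.31-fold higher, and Pttg1, which encodes securin, 4.28-fold. Espl1, the protease separase that securin restrains, was at 6.01, 6.04 and 6.07 against 7.51, 7.92 and 7.81 (3.27-fold). All 4 thus rose, and their groups did not overlap. The core subunits of the APC/C differed far less: of 13 measured, 7 were higher, 5 did not pass and Cdc16 was lower, with differences from -0.47 to 0.94. Over all genes 25.2% were called higher and 18.6% lower. In the list of further checkpoint, APC/C and mitotic entry or exit genes, 24 of 35 were higher and 2 lower, with a median of 0.83. Pbk (8.80-fold), a mitotic kinase, Cdca3 (6.57-fold) and Mastl (5.96-fold), the Greatwall kinase that keeps mitotic phosphatases off, led it, and the lower ones were Nek7 (2.12-fold, adjusted p = 4.15e-04) and Cdc16 (1.38-fold, adjusted p = 0.0449). The list had 1 lower gene in place of 2 without SKP replicate 2 or 3 and without NSCP replicate 1, 2 or 3.

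Genes of chromosome structure were higher in 5 of 5, and their median difference of 1.81 was the lowest among the roles. Top2a, which untangles DNA before chromosomes separate, stood at 8.97, 9.31 and 9.39 in SKPs and at 11.52, 10.95 and 11.32 in NSCPs (4.12-fold, SE 0.18, adjusted p = 3.19e-05 by limma). Mki67, the Ki-67 antigen that coats mitotic chromosomes and the usual marker of dividing cells, was at 9.84, 10.20 and 10.05 against 12.08, 11.75 and 11.997 (3.77-fold). Both genes were separated from the SKP arrays by more than the range within either group. Ncapg, a subunit of condensin I, was 3.51-fold higher. Smc2 and Smc4, the ATPases shared by both condensins, had smaller differences. Smc2 was at 8.40, 8.47 and 8.59 against 9.98, 9.28 and 9.93 (2.37-fold, adjusted p = 8.90e-04). Smc4 was at 9.03, 9.12 and 8.99 against 10.13, 9.39 and 9.82 (difference 0.73, SE 0.18, 1.66-fold, adjusted p = 0.0121), and its nearest arrays were 0.26 apart.

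Among genes of cohesin and the other condensin subunits, 10 of 16 were higher and 1 lower, beside 25.2% and 18.6% of all genes. The 4 other condensin subunits (Ncapd2, Ncapd3, Ncapg2 and Ncaph2) were all higher, by 1.15 to 1.72. The genes with the largest differences were Sgo1 (5.42-fold) and Sgo2 (4.88-fold), which protect cohesin at centromeres, and Esco2 (4.99-fold), which acetylates cohesin in S phase. Its relative Esco1, which acts through the whole cell cycle, was lower (2.07-fold, adjusted p = 0.00387 by limma). Of 8 genes of the cohesin ring and its release, which also serve resting cells, 3 were higher and 5 did not pass. Their median difference was -0.04, and 25.2% of all genes were called higher. Whether service in resting cells goes with smaller differences was not tested. Over all 6 lists of further mitosis genes together 100 of 129 were higher and 6 lower, and the median difference was 1.14.

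**Figure D4:**
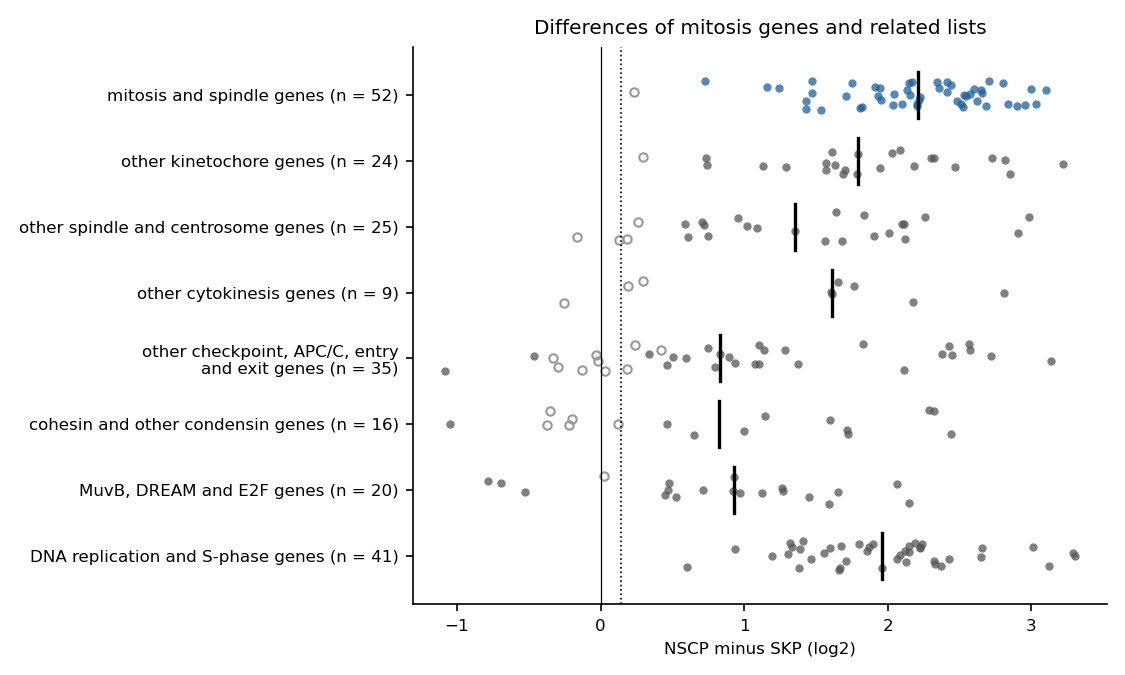
Difference of each gene (horizontal axis, NSCPs minus SKPs on the log2 scale) in the 52 mitosis and spindle genes (blue) and in 7 lists of related genes (grey), with filled points for called genes, open points for genes that did not pass, a bar at the median of each list and a dotted line at the median of all genes (0.14). The 52 genes lie from 0.23 to 3.10 with a median of 2.21. The lists of spindle and centrosome, cytokinesis, APC/C, cohesin and DREAM genes spread on both sides of 0.

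DNA replication and S-phase genes, the functionally closest group, were all higher too: 41 of 41 with a median difference of 1.96, from 0.60 to 3.31, and 0 lower (0 also at limma's unadjusted p under 0.05). Rrm2 (9.90-fold), Rfc3 (9.79-fold) and Uhrf1 (8.69-fold) led them. At least 4-fold were 20 of these 41 genes, beside 35 of the 52 mitotic genes. No test compared the groups of genes.

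Arrays of the same group were not equal in mitotic transcripts. With 1 array per isolate, a trait of an isolate and one of its RNA or array cannot be told apart. Among the SKP arrays replicate 1 was the lowest in 45 of the 52 genes and the highest in 0, while over all genes it was the lowest in 40% and the highest in 30.4%. It lay below the mean of replicates 2 and 3 in 48 of the 52 genes (54.7% of all genes). Its median distance from the mean of replicates 2 and 3 was -0.25, with the middle 50% of the genes from -0.36 to -0.15. Ccna2 (8.06 against 8.56 and 8.52), Kif23 (6.83 against 7.39 and 7.41) and Ube2c (6.73 against 7.27 and 6.99) show it, named after their values were seen. The same array had the highest mean of the macrophage and leukocyte markers, 9.71 against 8.83 and 9.08, and whether the 2 go together was not tested. Over the DNA replication list this array's median distance was -0.17.

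In NSCPs replicate 2 departed from the others in both directions. It was the lowest NSCP array in 34 of the 52 genes (33.3% of all genes) and the highest in 17 (43.2% of all genes). In 16 of the 52 genes it lay at least 0.5 below the mean of replicates 1 and 3, which was so for 5.79% of all genes. These 16 included Hmmr (-0.74), Bub1 (-0.73), Aspm (-0.72), Ect2 (-0.71) and Plk4 (-0.70), and 4 of the 6 kinetochore genes. At the other end stood Mybl2 (0.46), Cdc25b (0.44), Cdc20 (0.38), Espl1 (0.26) and Aurka (0.25), and all 4 genes of the anaphase group were above. In all, 18 of the 52 genes were above the mean of the other two (55.9% of all genes). Over all genes the middle 50% of this distance ran from -0.17 to 0.24, and in the DNA replication list the median was 0.12. No value of the labels sets this isolate apart. Genes of the further lists, named after their values were seen, departed in both directions as well. Stag2 was at 9.28 in replicate 2 against 10.09 and 9.97, and Septin7 at 10.55 against 11.17 and 11.19. Anapc2 was at 8.75 against 8.31 and 8.38, and Fzr1 at 8.79 against 8.16 and 8.39. Whether the departure of replicate 2 is particular to mitotic genes was not tested. The Schwann cell markers had array means of 10.76, 10.87 and 10.81 in NSCPs, but single markers departed in replicate 2 in both directions: Cdh19 was at 10.18 there against 10.99 and 10.92, and Ngfr at 12.02 against 11.55 and 11.63. Without NSCP replicate 2 the median difference of the 52 genes was 2.26, and without SKP replicate 1 it was 2.14.

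**Figure D5:**
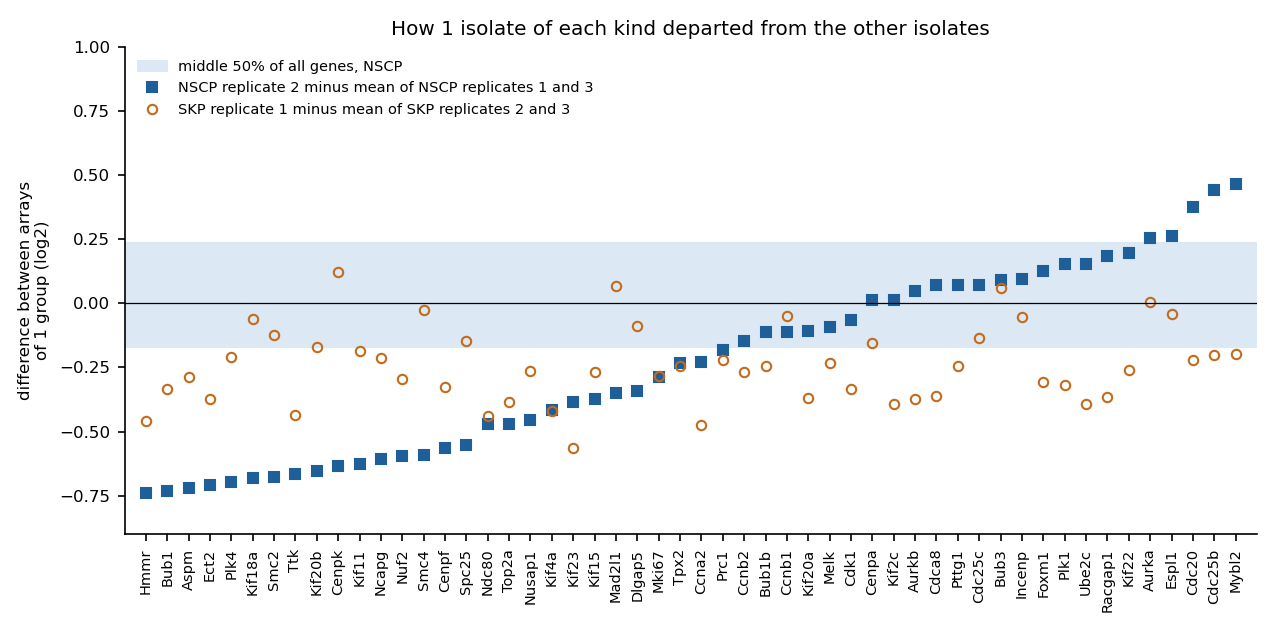
For each of the 52 genes (horizontal axis, ordered), the level in NSCP replicate 2 minus the mean of NSCP replicates 1 and 3 (blue squares) and in SKP replicate 1 minus the mean of SKP replicates 2 and 3 (open orange circles), on the log2 scale, with the middle 50% of the NSCP quantity over all genes shaded. The orange circles lie below 0 in 48 genes, while the blue squares run from -0.74 for Hmmr to 0.46 for Mybl2.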

How the data were processed

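RNA of 6 cultures, 3 of SKPs and 3 of NSCPs, was measured on 1 expression array each. The authors deposited 1 log2 value per probe set and array, made with RMA in oligo (no versions given), per the submitters' processing notes; RMA corrects background, quantile normalizes and combines probes. Quantile normalization hides a shift shared by all genes. Of 36685 probe sets 18511 had 1 gene symbol, 575 several and 17599 none in the platform's annotation. The 2-sided comparison used lmFit and eBayes of limma 3.58.1 (R 4.3.3) over all 6 arrays, without covariates or a filter, on 18166 genes, with Benjamini-Hochberg adjustment and a threshold of 0.05. The background level rests on 227 receptor genes. The fit was run on simulated data as a check of the code. Those data had independent genes and few true differences, unlike these arrays, so they do not measure its error rates here. The number of arrays limits the precision.

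Promoter windows are RefSeq's (GRCr8), matched by gene ID and symbol; 14503 of the genes tested had one. For the probe sets, no build is given in the sources used here.

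The genes and lists were chosen with earlier results of these data known. Values per array are given for the 12 genes with the largest differences, the gene not called, the 3 called genes with the smallest differences, both extremes of each role, Mki67, Top2a and Cdk1. From each further list the 3 largest called differences and up to 3 called against the list's direction are named. Of other cell types, marker lists of endothelium, epithelium, melanocytes, mural cells, neurons and skeletal muscle had medians between -0.25 and 0.43. Of their 31 distinct genes 7 were higher and 6 lower, beside 25.2% and 18.6% of all genes. The replicate numbers were checked as a pairing; same-numbered arrays correlated by 0.028 to 0.050 in their deviations from the group means and were not treated as pairs. Figures were drawn with matplotlib 3.10.9 in Python 3.11.15.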

Additional observations from a re-analysis of the deposited data

How the results depend on the processing

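The count of 51 genes higher was the same in 15 of 17 alternatives: each array left out in turn, quantile normalization applied again, median centring, both filters on dim genes, the mean of a gene's probe sets, array weights, an eBayes prior with trend, adjustment over all probe sets and the replicate number as a block. It was 50 at an adjusted p under 0.01, where Smc4 was lost, and 46 with limma's treat against a 2-fold change, which lost Kif20b, Kif15, Kif18a, Smc2 and Smc4; treat called 3.93% of all genes higher. No difference of the 52 genes changed sign in any of the 17, and their median stayed between 2.14 and 2.28. Cdc25b was not called in any, with adjusted p from 0.141 to 1.00. With the replicate number as a block 51 genes were higher. In the check above each array correlated best with its own number, and other numbers gave -0.038 to 0.004. All these correlations were small and none was tested, so the check does not settle whether the numbers pair the samples.

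Treat left 12 higher spindle and centrosome genes, 9 checkpoint and APC/C genes with 0 lower, 6 cohesin and condensin genes with 0 lower and 5 MuvB, DREAM and E2F genes with 0 lower (3, 1 and 3 lower at limma's unadjusted p under 0.05 against no change). Of the other checkpoint, APC/C and mitotic entry or exit genes lower in NSCPs, 1 to 2 were counted with an array left out, and 1 with median centring, with adjustment over all probe sets and at an adjusted p under 0.01. The count of all genes higher in NSCPs was 2886 at an adjusted p under 0.01 and 714 with treat, and that of all genes lower in NSCPs was 1044 with treat. Median centring moved the median difference of all genes from 0.14 to 0.21. With 3 arrays a group, differences near that of Cdc25b cannot be told from 0.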
